A study of Bos taurus with 6 samples.

Results

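CREB5, a transcription factor, and PRG4, the gene of the joint lubricant lubricin, are the induced gene and its best known output in this series, and they are 2 of the 27607 genes in the deposited table. They were found by gene symbol, CREB5 as ENSBTAG00000018909 and PRG4 as ENSBTAG00000011932, with 1 row each. Both stood among the 13180 genes tested. The cells were chondrocytes of the deep zone of bovine articular cartilage, the layer closest to bone, and their messenger RNA was sequenced. All 6 cultures carried a lentivirus with doxycycline-inducible bovine CREB5 and had passed 11 days of G418 selection at 500 µg/ml. All were then held for 3 days on low attachment plates with 10% FBS, 20 ng/ml of TGFb2 and 100 ng/ml of TGFa. The Dox- group (3 libraries, numbered 1 to 3) had no doxycycline. The Dox+ group (3 libraries, numbered 1 to 3) had doxycycline at 1 µg/ml, per the labels' treatment protocol, while the design text gives the same number in mg/ml. The cells came from 3 knees, and cells with doxycycline but without the CREB5 virus are not analysed here, so an effect of doxycycline and an effect of CREB5 cannot be told apart. Doxycycline was given at 1 level, so the level of CREB5 was not graded by design.

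CREB5 is a basic leucine zipper protein of the CREB and ATF family. Such proteins bind DNA as pairs, with themselves or with relatives such as JUN and ATF2, at cyclic AMP response elements and AP-1 sites. PRG4 encodes lubricin, also called proteoglycan 4, a large secreted protein whose central mucin domain is covered with O-linked sugars. It coats the cartilage surface, lowers friction, and is made in healthy cartilage by superficial zone chondrocytes and by the synovial lining, while deep zone chondrocytes make little of it. In bovine superficial zone chondrocytes CREB5 is known to be needed for PRG4 induction by TGF-beta and EGF receptor ligands.

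Values are normalized counts, the authors' reads per gene divided by 1 size factor per library. The libraries held between 20063379 reads (Dox+ 3) and 122366790 reads (Dox+ 2). A floor of 3 reads corresponded to at most 6.98 normalized counts, and intervals on reads cover counting error only. All 11 chondrocyte markers examined were tested, and most lay above the floor in every library. MATN1 lay below it in Dox+ 1 and Dox+ 3 (1.69 and 2.33), and SNORC in Dox+ 3 (4.65). Among the markers 1 rose, MATN3, and 2 fell, ACAN and COL9A1 (limma adjusted p under 0.05). Of all tested genes 2.52% were called higher, 0.357% lower and 2.88% in either direction. Of the 11, 8 had an unadjusted p under 0.05 in limma, and their median log2 fold change was -1.59. With the replicate number as a block, 1 was higher and 6 were lower, adding COL2A1, COL11A2, MATN1 and SNORC. The summed level of the 11 was 156751 to 310623 in Dox- and 104209 to 122054 in Dox+ libraries. The call of MATN3 was lost without Dox+ 3 and that of ACAN without any of Dox- 2, Dox- 3, Dox+ 1 and Dox+ 3 (highest limma adjusted p 0.059 and 0.17 over 21 alternatives). Synovial lining cells also make PRG4. Of 5 tested synovial fibroblast markers, not all specific to the lining, 0 were called in limma (4 at an unadjusted p under 0.05). With the block 2 were lower, FAP and THY1. HTRA4 went the other way without a call, at 13.5 ± 6.58 in Dox- and 38.3 ± 5.06 in Dox+ (SD, n = 3, log2 fold change 1.53). CD55, FAP, THY1 and PDPN had log2 fold changes of -1.67, -0.81, -1.15 and -0.66. The summed level of this list, mostly THY1, PDPN and FAP, was 79157 to 108895 in Dox- and 44635 to 60718 in Dox+ libraries. CLIC5 was at 0. Of 3 tested smooth muscle and pericyte markers 1 rose, MCAM, while CSPG4 and PDGFRB had log2 fold changes of -0.91 and -0.69, and CSPG4 was called lower with the block. Of 2 tested osteoblast markers 0 were called in limma (0 at an unadjusted p under 0.05), and SP7 was called lower with the block. What part any of this has in the results was not tested. Endothelial markers had summed levels of 131 to 294 in Dox- and 153 to 225 in Dox+ libraries. Leukocyte and macrophage markers had 206 to 462 and 381 to 709, with 0 called in either list. CDH5 and PTPRC were at or near 0. TEK was 102 ± 57.0 and 110 ± 53.9 (SD, n = 3), and CD14 126 ± 70.7 and 137 ± 48.5. CD68 was 232 ± 90.1 and 374 ± 182, higher in 3 of 3 pairs (limma adjusted p = 0.72). In cultures read as a whole, more RNA per cell and a larger share of cells that make a gene cannot be told apart.

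CREB5 was low in every library without doxycycline and high in every library with it. Libraries 1 to 3 had 510, 308 and 330 normalized counts without doxycycline. With it they had 20935, 12413 and 21964. The groups did not overlap, and the lowest Dox+ library, number 2, still lay far above the highest Dox- library, number 1. These values rested on 831, 208 and 540 reads in the Dox- libraries and 12371, 28126 and 9445 reads in the Dox+ libraries, so the cells without doxycycline also held CREB5 RNA, at 69.3 times the floor or more. As a share of all reads, CREB5 took 0.000999% of Dox- 1 (95% exact binomial interval 0.000932% to 0.00107%) and 0.0471% of Dox+ 3 (0.0461% to 0.0480%), the highest library of each group.

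The log2 fold change of CREB5 in limma was 5.58 (95% interval 4.94 to 6.22, SE 0.28, adjusted p = 2.7e-05, n = 3 per group), or 47.8-fold. Compared by number, CREB5 was 41.1-fold higher in pair 1, 40.4-fold in pair 2 and 66.5-fold in pair 3. Pair 3 thus had the largest rise of CREB5, and pairs 1 and 2 were close to each other. The authors' deposited table gives a log2 fold change of 5.56 with a standard error of 0.23. The limma SE was 0.28 without and 0.20 with the replicate number as a block. Counts do not separate virus-encoded CREB5 RNA from that of the cell's own gene.

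PRG4 was detected in every Dox- library and rose by a larger factor than CREB5. Libraries 1 to 3 had 571, 1705 and 929 normalized counts without doxycycline. With it they had 253217, 565979 and 359117. Every Dox+ library was above every Dox- library, and within both groups number 1 was lowest and number 2 highest. The Dox- values rested on 932, 1153 and 1519 reads, so PRG4 was not at the limit of detection in deep zone cells without doxycycline. In Dox+ cells PRG4 reads numbered 149633, 1282426 and 154430.

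As a share of each library, PRG4 went from 0.00112% of reads in Dox- 1 (95% exact binomial interval 0.00105% to 0.00119%) to 0.493% in Dox+ 1 (0.490% to 0.495%). In pair 2 the shares were 0.00288% and 1.05%, and in pair 3 they were 0.00174% and 0.770%. Read counts are not corrected for transcript length, so these shares are parts of the sequenced reads and not of the RNA molecules. PRG4 accounted for 25.3% of the summed rise in mean normalized counts over the 332 genes called higher, and CREB5 for 1.17%.

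In limma the log2 fold change of PRG4 was 8.59 (95% interval 7.64 to 9.53, SE 0.41, adjusted p = 2.1e-05, n = 3 per group), or 384-fold. By number, PRG4 was 443-fold higher in pair 1, 332-fold in pair 2 and 387-fold in pair 3. The authors' deposited table gives a log2 fold change of 8.60 with a standard error of 0.20. The limma SE was 0.41 without and 0.18 with the replicate number as a block. Ordered by log2 fold change, PRG4 stood at place 10 and CREB5 at place 62 of the 13180 tested genes. Their fold changes varied little with the processing: over 21 alternative fits the log2 fold change lay between 8.21 and 8.99 for PRG4 and between 5.34 and 5.84 for CREB5, and both kept their call in all of these fits.

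**Figure D1:**
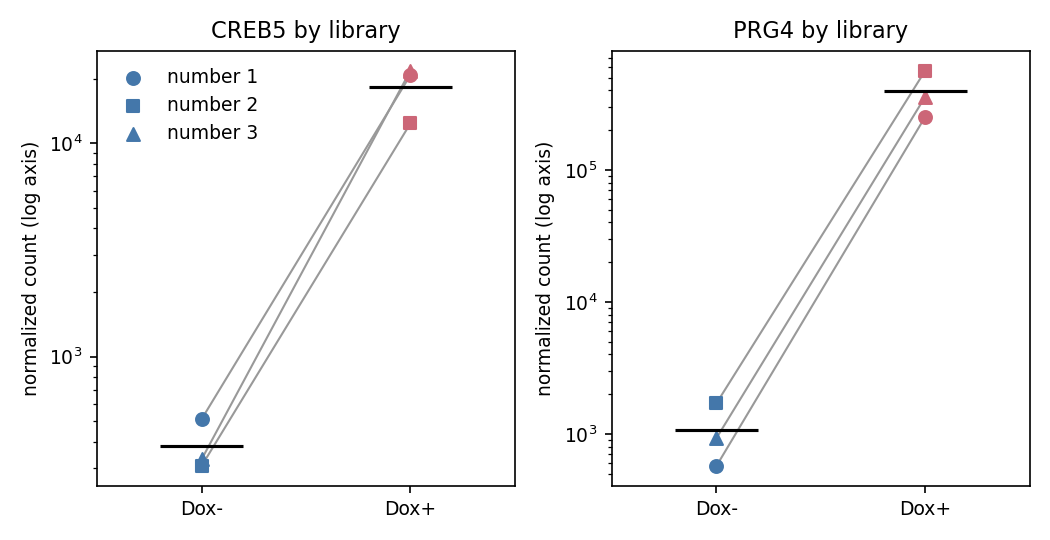
Normalized counts (log axis) of CREB5 and PRG4 in the 3 Dox- and 3 Dox+ libraries, with a line joining libraries of the same number and a black bar at each group mean. CREB5 lies between 308 and 510 in Dox- and between 12413 and 21964 in Dox+, and PRG4 between 571 and 1705 and between 253217 and 565979, with the numbers in the same order for PRG4 in both groups.

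The library with the most CREB5 was not the library with the most PRG4. Among Dox+ libraries, number 2 had the least CREB5 (12413) and the most PRG4 (565979), while numbers 1 and 3 had near-equal CREB5 (20935 and 21964) and PRG4 of 253217 and 359117. Among Dox- libraries, number 1 had the most CREB5 (510) and the least PRG4 (571), and number 2 the least CREB5 (308) and the most PRG4 (1705). No correlation is given, since each group holds 3 libraries and the groups stand far apart.

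The spread of PRG4 followed the number of the library. On the scale of log2(normalized count + 1), Dox- 1, 2 and 3 deviated from their group mean by -0.76, 0.82 and -0.06. The Dox+ libraries deviated by -0.55, 0.61 and -0.05, in the same order and of similar size. COL2A1, ACAN, COL11A2, THY1 and FAP had this order of libraries in both groups too, so it was not particular to PRG4. The residual SD of PRG4 was 0.69 without and 0.15 with the replicate number as a block, against 84.3% and 22.8% of tested genes with a smaller SD. For CREB5 the deviations were 0.45, -0.28 and -0.17 in Dox- and 0.23, -0.53 and 0.30 in Dox+, so number 2 was lowest in both groups and number 3 changed sides. The residual SD of CREB5 was 0.43 without and 0.29 with the block. The fold of PRG4 therefore differed less between pairs (SD 0.21 on the log2 scale, n = 3) than its level did between libraries of a group (SD 0.79 in Dox- and 0.58 in Dox+).

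**Figure D2:**
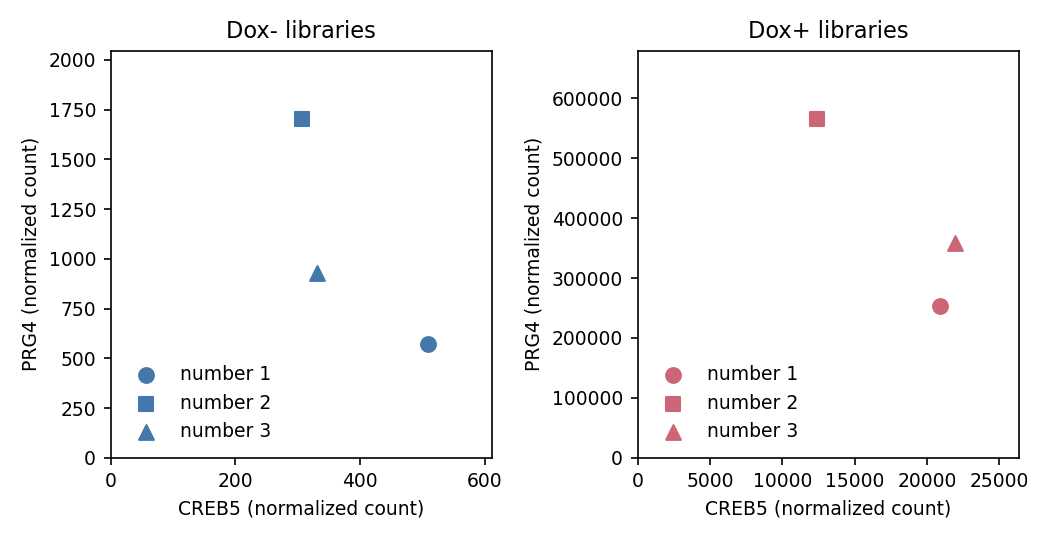
PRG4 against CREB5 in normalized counts, with the 3 Dox- libraries on the left and the 3 Dox+ libraries on the right, on separate axes that start at 0. In both panels number 2 has the lowest CREB5 and the highest PRG4 (1705 in Dox- and 565979 in Dox+).

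The ratio of PRG4 to CREB5 was higher with doxycycline. It was 1.12, 5.54 and 2.81 without doxycycline (libraries 1 to 3) and 12.1, 45.6 and 16.4 with it. No Dox+ library overlapped with a Dox- library. On the log2 scale the ratio was 1.37 ± 1.16 in Dox- and 4.38 ± 1.00 in Dox+ cells (SD, n = 3), a difference of 3.01, so that PRG4 changed by a factor 8.03 times that of CREB5. The two-sided exact permutation test gave p = 0.1, which is the smallest p that 3 libraries against 3 can give. By number, the factor was 10.8 in pair 1, 8.23 in pair 2 and 5.81 in pair 3. The factor is the fold of PRG4 divided by that of CREB5, so a larger rise of CREB5 lowers it by arithmetic. No dose response can be read from its order over the pairs. Each log2 unit of CREB5 went with 1.64, 1.57 and 1.42 log2 units of PRG4 in pairs 1, 2 and 3, a quotient with the same limit.

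The genes whose profile over the 6 libraries was nearest to that of PRG4 were FILIP1, RANBP3L, RSPO3, NRG1 (ENSBTAG00000054057) and ART3. The measure was the root mean square difference of log2(normalized count + 1) after centring each gene, which was 0.71 for FILIP1 and 0.98 for ART3 against a median of 4.34 over tested genes with a symbol. CREB5 itself stood at place 51 in this order, with a difference of 1.74. RSPO3, an R-spondin, was 54.0, 68.0 and 99.1 without doxycycline (libraries 1 to 3) and 8894, 10095 and 10197 with it. RANBP3L, NRG1 under this identifier and ART3 had 0 reads in all 3 Dox- libraries, and FILIP1 had a read in Dox- 3 only. Nearness to PRG4 includes the size of the change, so genes with a smaller change are left out by construction.

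Nearest to CREB5 were NLGN1, ESM1, TNFRSF9, SEMA3D and ALDH1A3, with differences from 0.30 to 0.40 against a median of 2.83. ESM1, which encodes the secreted proteoglycan endocan, was 900, 627 and 819 without doxycycline (libraries 1 to 3) and 30207, 15565 and 48762 with it. As for CREB5, its lowest value in each group was in number 2, a likeness that the choice by nearness favours. SEMA3D, a secreted semaphorin, was 23.9, 7.39 and 7.95 without doxycycline (libraries 1 to 3) and 934, 395 and 526 with it. TNFRSF9 was at 0 in each Dox- library and at 59.2, 19.9 and 58.1 in Dox+ 1, 2 and 3. NLGN1 was 0.61, 0 and 0 without doxycycline (libraries 1 to 3) and 69.4, 68.8 and 81.4 with it. ALDH1A3 was 1.23, 0 and 0 without doxycycline and 72.8, 26.5 and 116 with it. The Dox- values of TNFRSF9, NLGN1 and ALDH1A3 lie below the floor of 3 reads, so the added count of 1 shapes their log2 profiles. These 10 genes were chosen by their profile over these same libraries, the contrast included. Neither their calls nor their order within groups are further support. TNFRSF9 and ALDH1A3 lost the call without Dox+ 3 (limma adjusted p = 0.060 and 0.059, with 4.8e-08 to 0.060 and 1.1e-10 to 0.059 over 20 alternatives). Such ranges, here and below, include fits with the block and a pair left out, which have 1 residual degree of freedom per gene. Their low ends therefore carry little weight.

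**Figure D3:**
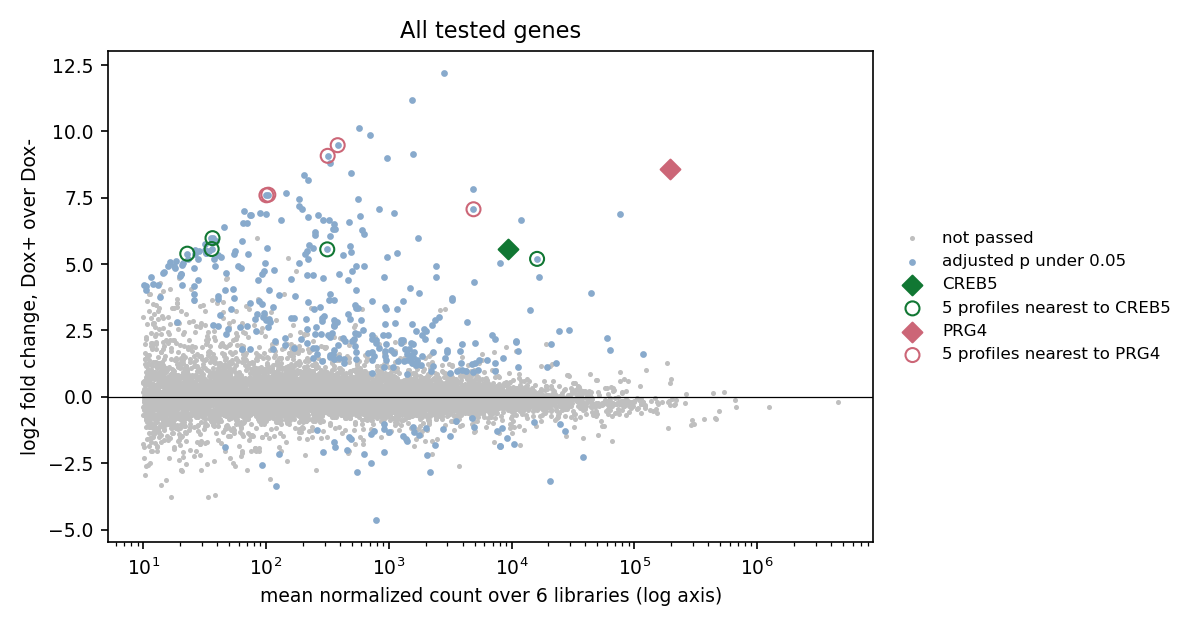
Log2 fold change of Dox+ over Dox- against the mean normalized count over 6 libraries (log axis) for the 13180 tested genes, with genes at an adjusted p under 0.05 in blue. PRG4 (8.59) and CREB5 (5.58) are diamonds, and open circles mark the 5 profiles nearest to each.

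Genes of the proteins that CREB5 can pair with, and of its coactivators, were expressed in both groups without a call. Of 13 genes, 11 were tested, and limma called 0 higher and 0 lower (2 at an unadjusted p under 0.05, and 0 by edgeR and by DESeq2). The median log2 fold change was 0.04, against -0.0036 over all tested genes. ATF2, the closest relative of CREB5 here together with ATF7, was 908 ± 378 without and 983 ± 209 with doxycycline (SD, n = 3, as for the pairs of means that follow). ATF7 was 1014 ± 317 and 831 ± 294. JUNB, an AP-1 subunit, was 21551 ± 2941 and 21067 ± 7462. JUN was 3146, 2045 and 2950 without doxycycline (libraries 1 to 3) and 2386, 1228 and 1056 with it. It was lower in 3 of 3 pairs and passed only with the replicate block (limma adjusted p = 0.32, and 0.048 with the block, range 0.0066 to 0.88 over 21 alternatives). FOSL2, a FOS relative, was 2678 ± 429.5 and 3975 ± 856 (adjusted p = 0.37), and FOSL1, another, was 1843 ± 620 and 1363 ± 390 (adjusted p = 0.78). CREBBP and EP300, which encode the coactivators CBP and p300, had log2 fold changes of 0.22 and 0.25. BATF was at 0 in every library and BATF3 stood below the filter for testing, at 1.48 to 3.07 in Dox- and 6.77 to 14.0 in Dox+ libraries.

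Among receptors, transducers and transcription factors linked to PRG4 expression in cartilage, 17 of 17 were tested and limma called 0 (2 at an unadjusted p under 0.05, 0 by edgeR and 1 lower by DESeq2). Their median log2 fold change was -0.09. The TGF-beta receptor genes TGFBR1 and TGFBR2 had log2 fold changes of 0.36 (SE 0.47) and -0.19 (SE 0.17). EGFR, the receptor of TGFa, was 364 ± 165 and 462 ± 139, and the transducer genes SMAD2, SMAD3 and SMAD4 lay between -0.46 and 0.26. FOXO1 and FOXO3, forkhead factors of cartilage upkeep, were at -0.05 and 0.20. ERG, an ETS factor of articular chondrocytes, was 1586, 2288 and 2358 without doxycycline (libraries 1 to 3) and 675, 1249 and 884 with it. The groups of ERG did not overlap, which 6.29% of tested genes showed in the lower direction. ERG did not pass in limma with all libraries and no block (adjusted p = 0.065). It passed with the block (0.0042), without Dox- 1 (0.034), without Dox+ 2 (0.029) and in DESeq2 (0.0045), with a range of 2.3e-07 to 0.26 over 21 alternatives. NFATC1, a calcium-regulated factor of joint progenitors, was 4190 ± 1332 and 2555 ± 604 (adjusted p = 0.35, and 0.035 with the block, range 0.00030 to 0.81). CTNNB1, the gene of beta-catenin, was 18951 ± 3402 and 14320 ± 2380 (adjusted p = 0.61). GDF5, a joint-forming ligand, was 158 ± 58.2 and 106 ± 93.9 (adjusted p = 0.77). With the block, 4.86% of all tested genes were called higher, 1.65% lower and 6.51% in either direction.

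Readout genes of the ligands present in both media were examined next. Of 8 early TGF-beta targets, limma called 0 (2 at an unadjusted p under 0.05, 0 by edgeR and 1 lower by DESeq2), and their median was -0.08. PMEPA1, a membrane protein that restrains TGF-beta signalling, was 9765, 10458 and 20041 without doxycycline (libraries 1 to 3) and 4924, 7557 and 6223 with it. PMEPA1 and CCN2, a matricellular growth factor, did not pass in limma without the block and were lower with it (limma adjusted p = 0.14 and 0.63, and 0.0217 and 0.0345 with the block, ranges 1.3e-05 to 0.43 and 0.0044 to 0.999). PMEPA1 also passed in DESeq2 without the block (adjusted p = 0.017). SKIL, a SMAD repressor, was 604 ± 292 and 1077 ± 293 (adjusted p = 0.41).

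Of 12 feedback genes of EGF receptor and MAP kinase signalling, 2 rose, SPRY2 and DUSP6, and 0 fell. Over all tested genes limma called 2.52% higher and 0.357% lower. In this list edgeR called 1 higher and DESeq2 2. The median of the 12 was 0.62, and the lowest log2 fold change among them was 0.10. SPRY2, an inhibitor of receptor tyrosine kinase signals, was 969, 414 and 544 without doxycycline (libraries 1 to 3) and 3461, 2415 and 3358 with it. It rose 5.04-fold (log2 2.33, SE 0.32, limma adjusted p = 0.0051). DUSP6, a phosphatase that switches off ERK, was 1166, 358 and 331 without doxycycline (libraries 1 to 3) and 4050, 1938 and 3693 with it. DUSP6 rose 5.93-fold (adjusted p = 0.025), but its limma adjusted p was 0.095, 0.10, 0.0996 and 0.15 when Dox- 2, Dox- 3, Dox+ 1 or Dox+ 3 was left out, and edgeR gave 0.057 (range 3.6e-29 to 0.15 over 21 alternatives). Both genes had their lowest Dox+ value in number 2, as CREB5 did, but so did most other genes of this list. EGFR and HAS2, outside the list, also had it there, so this order was not particular to SPRY2 and DUSP6. DUSP4, DUSP5, SPRY4, SPRED1, SPRED2, ETV4, ETV5, EGR1, PHLDA1 and ERRFI1 did not pass, with log2 fold changes from 0.10 to 1.09. EGR1, an immediate early gene, was 8048 ± 3342 and 12325 ± 4981 (adjusted p = 0.73).

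Genes of the enzymes that build the O-linked sugars of mucin domains were mostly expressed in both groups. Of 27 genes, 25 were matched and 21 tested, and limma called 0 (2 at an unadjusted p under 0.05, 0 by edgeR and 1 lower by DESeq2), with a median of -0.09. GALNT1 and GALNT2, which encode enzymes that attach the first sugar, had log2 fold changes of -0.26 (SE 0.17) and 0.04 (SE 0.16). C1GALT1, which adds the second sugar, and its chaperone C1GALT1C1 were at -0.09 (SE 0.36) and -0.24 (SE 0.20). GALNT15 was 530, 1472 and 1816 without doxycycline (libraries 1 to 3) and 205, 447.5 and 674 with it, lower in each pair. GALNT15 did not pass in limma with all libraries and no block (adjusted p = 0.30). It passed with the block (0.0013), without Dox- 1 (0.039) and in DESeq2 (0.040), with a range of 1.4e-10 to 0.69 over 21 alternatives. GALNT10 was at -0.86 (SE 0.38), lower in every pair but without a call (limma adjusted p = 0.47). GALNT3 and the branching enzyme gene GCNT1 were at 1.27 (SE 0.60) and 1.06 (SE 0.56) and did not pass. GALNT6 and ST6GALNAC1 were at 0 in every library.

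Among 11 genes of proteins that bind lubricin, or that make or bind the hyaluronan it works with, 1 rose, TNFAIP6, and 1 fell, LGALS3. The limma shares over all tested genes were 2.52% higher and 0.357% lower. The list's median was 0.25. LGALS3, the gene of galectin-3, a lectin that crosslinks lubricin, was 34407, 34113 and 46488 without doxycycline (libraries 1 to 3) and 12299, 20636 and 14997 with it. It fell 2.43-fold (log2 -1.28, SE 0.24, limma adjusted p = 0.024), and the adjusted p was 0.062, 0.086, 0.10 and 0.14 when Dox- 2, Dox- 3, Dox+ 1 or Dox+ 3 was left out (range 3.3e-08 to 0.14 over 21 alternatives). TNFAIP6, the gene of TSG-6, a protein that binds hyaluronan, was 175, 219 and 303 without doxycycline (libraries 1 to 3) and 20226, 20650 and 30212 with it (log2 6.68, SE 0.25, adjusted p = 4.2e-06). CD44, a hyaluronan and lubricin receptor, and COL2A1, the type II collagen gene, did not pass in limma without the block, and with it CD44 was higher and COL2A1 lower (limma adjusted p = 0.142 and 0.215, and 0.026 and 0.0023 with the block, ranges 7.6e-06 to 0.39 and 9.9e-10 to 0.635). Both also passed in DESeq2 without the block (adjusted p = 0.020 and 0.017), which called 2 genes of this list higher and 2 lower, and COL2A1 passed in limma without Dox- 1 (0.019). COMP, a cartilage matrix protein reported to bind lubricin, was 564, 1812 and 5734 without doxycycline (libraries 1 to 3) and 384, 1021 and 551 with it. It was lower in 3 of 3 pairs and passed in limma only without Dox- 1 among single libraries left out (adjusted p = 0.51, and 0.034 without Dox- 1). With the block it did not pass (0.076), and the range was 6.1e-10 to 0.98 over 21 alternatives. The hyaluronan synthase gene HAS2 was at 0.69 (SE 0.37), and the fibronectin gene FN1 at -0.18 (SE 0.52).

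Among proprotein convertases, cathepsins and HTRA1, 11 of 12 genes were matched and tested, and 2 rose, PCSK5 and CTSL, while 0 fell. Limma called 2.52% of all tested genes higher and 0.357% lower. The median was 0.07. PCSK5, a convertase that cuts secreted precursors, was 620, 620 and 562 without doxycycline (libraries 1 to 3) and 2395, 2699 and 2260 with it. Libraries of a group were close, and the rise was 4.07-fold (log2 2.03, SE 0.18, limma adjusted p = 0.00046). The other convertase genes, FURIN, PCSK6 and PCSK7, had log2 fold changes of -0.51, 0.06 and 0.30 and did not pass. CTSL, a cathepsin gene, was 20.2, 2.96 and 1.83 without doxycycline (libraries 1 to 3) and 858, 459 and 621 with it (log2 6.66, SE 0.72, adjusted p = 0.0013). Its Dox- 2 value lay below the floor of 3 reads and its Dox- 3 value at it. The added count of 1 therefore shapes the size of its log2 fold change. CTSL and CTSV have shared symbols in RefSeq's synonyms, and how reads were divided between them is not known; the authors' deposited table gives CTSV a log2 fold change of -0.02. CTSS, another cathepsin gene, was 1312, 1152 and 733 without doxycycline (libraries 1 to 3) and 2584, 1351 and 1881 with it, and did not pass (limma adjusted p = 0.28). CTSB, CTSD and CTSK, abundant lysosomal proteases, were at 0.07, -0.33 and -0.25.

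**Figure D4:**
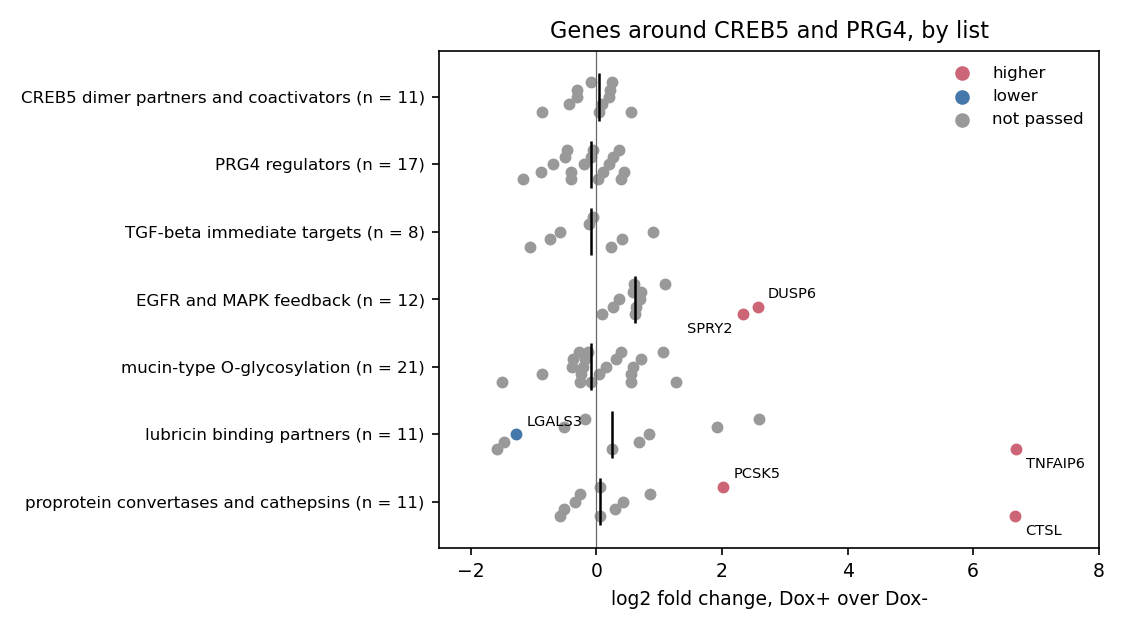
Log2 fold change of Dox+ over Dox- for the tested genes of each list, 1 point per gene, with red for called higher, blue for called lower and grey for not passed (limma, adjusted p under 0.05), and a black line at each list's median. SPRY2, DUSP6, TNFAIP6, PCSK5 and CTSL are the genes called higher and LGALS3 the gene called lower.

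Genes next to PRG4 and CREB5 were read in the order of RefSeq's protein-coding genes, taking 3 on each side. On chromosome 16, HMCN1, which encodes the matrix protein hemicentin-1 and is the nearest on one side of PRG4, was 599, 768 and 182 without doxycycline (libraries 1 to 3) and 1621, 1182 and 1226 with it. Its groups did not overlap, as in 8.88% of tested genes in this direction, and it was higher in each pair. HMCN1 did not pass in the unblocked fit (log2 1.60, SE 0.48, limma adjusted p = 0.17, and 0.019 with the block, range 2.4e-10 to 0.46 over 21 alternatives), and DESeq2 without the block gave 0.040. IVNS1ABP and ODR4 were at -0.19 (SE 0.19) and 0.09 (SE 0.20). LOC101904614 and LOC107133263 had at most 1.69 normalized counts in any library. TPR, the nearest on the other side, was matched to no row and is not analysed here. In RefSeq's models the ends of PRG4 and TPR overlap, and no source used here gives the strand setting of the counting, so reads from the overlap cannot be told apart. In the same way a pseudogene and a long noncoding RNA model overlap CREB5.

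On chromosome 4, CHN2, which encodes the signalling protein beta-chimaerin, is the third gene from CREB5 on one side. It was 24.5, 7.39 and 1.83 without doxycycline (libraries 1 to 3) and 105, 69.7 and 60.5 with it. CHN2 did not pass in limma with all libraries and no block (log2 3.19, SE 0.78, adjusted p = 0.085). It passed with the block (0.0057), without Dox- 1 (0.013) and in DESeq2 (0.018), with a range of 1.1e-05 to 0.27 over 20 alternatives. TRIL and CPVL, which lie between CHN2 and CREB5, stood below the filter for testing. TRIL was at 0 in all Dox- libraries and at 6.77, 1.32 and 2.33 in Dox+ 1, 2 and 3. CPVL had a read in Dox+ 2 only. On the other side JAZF1, TAX1BP1 and HIBADH had log2 fold changes of -0.25 (SE 0.48), 0.18 (SE 0.23) and 0.23 (SE 0.16), of which the first and the second changed sign with single libraries.

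**Figure D5:**
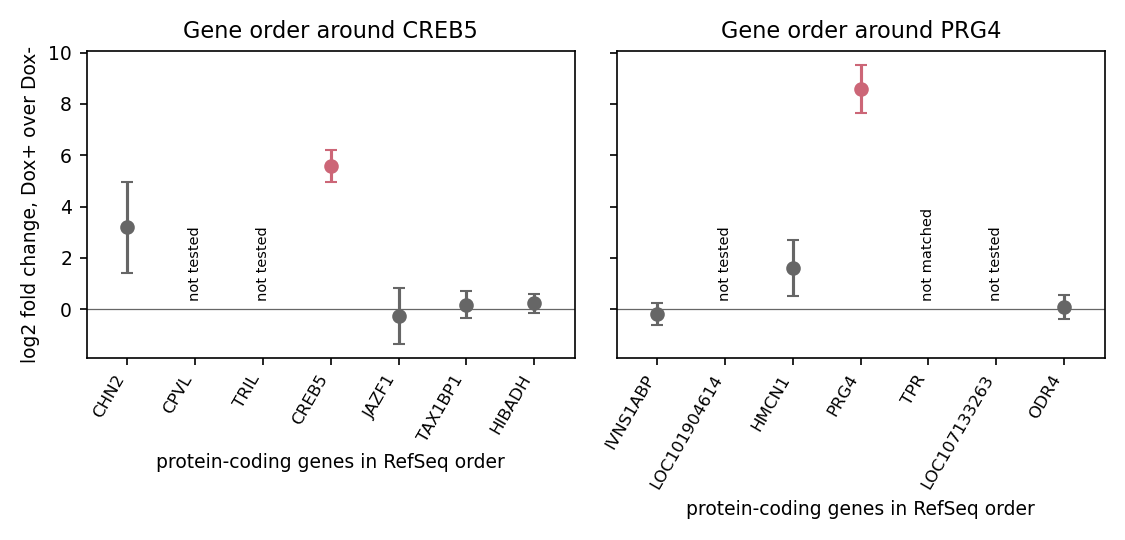
Log2 fold change of Dox+ over Dox- with its 95% interval for CREB5, PRG4 and the 3 protein-coding genes on each side of each, in RefSeq order. CREB5 (5.58) and PRG4 (8.59) are called, in red, and no tested neighbour is called by limma without the block, with CHN2 at 3.19 and HMCN1 at 1.60.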

How the data were processed

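RNA-seq libraries of 6 cultures were grouped by their titles into Dox- and Dox+ (3 each). The deposited signal per gene is a normalized count, which the authors made with a single size factor for each library. The deposited comparison table gives a log2 fold change, its standard error (a score) and a p-value per gene. The tools STAR 2.5.2b, Salmon, DESeq2, FastQC 0.11.3 and MultiQC 1.2 and, as builds, bosTau9 and ARS-UCD1.2 appear without a role, per the submitters' processing notes. No source used here gives the annotation or strand setting.

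Values were whole multiples of 1 read's worth (100% within 0.01 read), so reads were recovered. The test was limma 3.58.1 (R 4.3.3; trend, two-sided) on log2(normalized count + 1) with group as the only term, over 13180 genes whose mean reached 10, Benjamini-Hochberg adjusted, at a threshold of 0.05. The code was tested on simulated data. Alternatives were other pseudocounts, filters and scalings, each library left out, and the replicate number as a block, also with each pair left out. Further ones were edgeR 4.0.16 and DESeq2 1.42.0 on recovered reads, where edgeR without the block called 304 genes higher and 39 lower. Low ends of the ranges over alternatives carry little weight. WWTR1, at a limma adjusted p of 0.89, ranged from 5.6e-09 to 0.999. The labels name 3 knees without tying a number to a knee. Deviations from the group means correlated at 0.65, 0.44 and 0.21 in libraries numbered 1, 2 and 3. Between unlike numbers they correlated at -0.59 to 0.18, the highest of these close to the value of number 3. Libraries were therefore also compared by number, while the main fit, its intervals and its calls leave the number out. With the number as a block the SE was 0.18 for PRG4 and 0.20 for CREB5. The authors' table gives CREB5 an adjusted p of 2.4e-129. DESeq2 on recovered reads gave an adjusted p of 1.3e-128 with the block and 3.1e-69 without it. Whether the authors' fit included the number was not tested. Blocked calls or values are given where the block changes the call of a named gene. If the numbers do not mark knees, p-values measure only the spread between these libraries.

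Besides CREB5 and PRG4, genes were named by rule: up to 3 of each list with the smallest p and any called member, the 5 nearest profiles and the 3 neighbours on each side. Other list members given by value were chosen for their role. Cell type markers are given mainly by counts. Gene order came from RefSeq's ARS-UCD2.0 table, whose build differs from that of the files, and its coordinates are not given. The genes and lists were chosen with earlier results of these data known.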

Additional observations from a re-analysis of the deposited data

How the results depend on the processing

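CREB5 and PRG4 kept their direction and call in all 21 alternative fits. Their log2 fold changes ranged from 5.43 to 5.84 and from 8.21 to 8.99 with 1 library left out, and were 5.58 and 8.59 with the replicate block. The log2 ratio of PRG4 to CREB5 ranged from 2.40 to 3.55 with 1 library left out, and an exact sign-flip test of the 3 pairs gave p = 0.25, the smallest it can give. Counts over all genes, 332 higher and 47 lower in limma, depended on the fit: 640 and 218 with the replicate block, 591 and 190 in edgeR with the block, 542 and 159 in DESeq2, and 743 and 306 in DESeq2 with the block. With 1 library left out they were 139 to 365 higher and 9 to 72 lower. With the block and pair 1, 2 or 3 left out they were 602, 934 and 917 higher and 188, 276 and 537 lower, in fits with 1 residual degree of freedom per gene. Rescaling to equal totals moved the median log2 fold change of all tested genes to 0.10. JAZF1 ranged from -0.70 to 0.16 over the libraries left out (0.094 when Dox- 1 was dropped), and was 0.25 with the block and no pair 2. TAX1BP1 ranged from -0.038 (Dox- 3 dropped) to 0.37, and was -0.066 with the block and no pair 3. Beside CREB5 and PRG4, 20 named genes were called, and dropping a library ended the call of 6 of these: ACAN, ALDH1A3, DUSP6, LGALS3, MATN3 and TNFRSF9. The cause was not tested. All 20 stayed called with the block and all libraries. Depth limits genes near 3 reads, such as TRIL and CPVL and, without doxycycline, CTSL.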
